A study of Mus musculus with 12 samples.

Results

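The WT-only peaks are the m6A peaks that the authors called in the hippocampus of wild-type (WT) mice and whose span overlaps no peak called in *Tyrobp-/-* mice by 1 bp or more, strand ignored. They number 6720 of the 33622 peaks of the WT list (20.0%), and of 68557 peaks in both lists together. The other 26902 WT peaks are called shared here, and 7712 of the 34935 *Tyrobp-/-* peaks (22.1%) overlapped no WT peak. Each WT peak has 1 value over pooled replicates, and the peak calls themselves chose the members, so strength, width and annotation of the WT-only peaks are given as descriptions with no test.

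The groups were WT and *Tyrobp-/-* C57BL/6 mice aged 6 months, with 3 samples of each genotype, and the study's methods describe male animals with WT littermates as controls. The *Tyrobp-/-* line came from TALEN injection into fertilized eggs, and each sample pooled the hippocampal RNA of several mice. Every sample gave an immunoprecipitated (IP) library and an input library, 12 libraries in all, made from poly(A) RNA. In this whole tissue, fewer cells of a type and less RNA per cell cannot be told apart. *Tyrobp* itself, which encodes the microglial adaptor that couples receptors such as TREM2 to the kinase SYK, held 0 peaks in both lists, so the lists do not check the genotype.

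N6-methyladenosine (m6A) is written on mRNA by the METTL3-METTL14 complex with WTAP, can be removed by FTO and ALKBH5, and is bound by YTH-domain readers that act on splicing, translation and decay. It is best known near stop codons and along 3′ UTRs, most often within the consensus GGACT or close variants of it. Antibodies against m6A also bind m6Am, a related mark on the first transcribed base when that base is an adenosine, so a peak at a transcript's 5′ end can hold either mark.

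Sequences were read at the annotated transcript starts that WT-only peaks of any annotation class covered. The exonic blocks of WT-only peaks covered 426 RefSeq starts of the same gene, in 399 genes. The first transcribed base was an A at 35.7% of these starts, against 32.2% of the 1498 starts covered by shared WT peaks and 34.4% of all 32851 promoter entries of RefSeq (GRCm38.p6). GGACT stood within the first 50 transcribed bases, on the transcribed strand, at 6.10% of the starts covered by WT-only peaks, 5.67% of those covered by shared peaks and 5.76% of all entries. Its reverse complement AGTCC stood there at 5.87%, 6.14% and 4.87%. These shares were close to those of all promoters. The 5 covered starts of genes described in later paragraphs are printed as 30 bases, from 10 before the start onwards, with the first transcribed base in capitals, and 2 of the 5 begin with A.
*Nrgn* (chr9:37552726-37552755, reverse strand): cttcgaggccGcagggctcaggttacattc
*Npy* (chr6:49822700-49822729, forward strand): gtgggcgaccCgctctccgcatcccaccgg
*Nr4a3* (chr4:48045295-48045324, forward strand): cacagacagaCacacgcgcgctcacacgct
*Cln3* (chr7:126585798-126585827, reverse strand): ttctgttcacAggttctcagaggctcccca
*H2-M5* (chr17:36989514-36989543, reverse strand): acaaagtctcAgtccctctagaccttctaa

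WT-only peaks also lay over microRNA hairpins, the stem-loops from which DROSHA and DICER cut mature microRNAs. Of 1005 hairpins in RefSeq, 35 overlapped the exonic blocks of any WT peak and 6 those of a WT-only peak, and 4 of the 6 were covered whole. These were *Mir770* in the imprinted *Meg3* locus (fold enrichment 1.91, log10 FDR -2.99), *Mir3968* (9.77, -1.55), *Mir1905* (7.81, -0.79) and *Gm38670*, a hairpin under a 5′ peak of the small heat shock protein gene *Hspb6* (20.5, -7.32). None of the genes credited with the 4 peaks had a peak in the *Tyrobp-/-* list. For *Mir770*, *Mir3968* and *Mir1905* that gene was the microRNA entry itself, so peaks of their host genes were not looked up. Over all WT-only peaks, 23.5% lay in a gene with no *Tyrobp-/-* peak. The mature microRNAs are printed with the seed, bases 2 to 8, in capitals, because the seed decides which targets a microRNA pairs with. No seed was shared among them. The libraries held fragments of poly(A) RNA, so these peaks lie over host transcripts and do not measure the mature microRNAs.
miR-770-5p (chr12:109563710-109563731, forward strand): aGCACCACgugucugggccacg
miR-770-3p (chr12:109563744-109563765, forward strand): cGUGGGCCugacguggagcugg
miR-3968 (chr11:115447969-115447989, reverse strand): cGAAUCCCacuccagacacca
miR-1905 (chr3:88536311-88536332, reverse strand): cACCAGUCccaccacgcgguag
miR-9769-5p (chr7:30552839-30552860, forward strand): aGGCACAGaauuaggcccgacc
miR-9769-3p (chr7:30552871-30552892, forward strand): uAGGGUCUguucuguguccucc

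The WT-only peaks were weaker and narrower than the shared WT peaks. Fold enrichment, the ratio of IP over input reads that exomePeak reports, had a median of 4.39 in the WT-only peaks (quartiles 2.35 and 7.81) and 5.83 in the shared peaks (3.23 and 9.91). The median log10 FDR of the peak call was -2.01 in the WT-only peaks and -26.4 in the shared peaks. Exonic width, the sum of a peak's blocks without introns, had a median of 151 bp (quartiles 91 and 240) against 390 bp (211 and 690). Most WT-only peaks were a single block: 81.7% (exact 95% interval 80.8 to 82.6%) against 68.4% of shared peaks. All intervals given here cover counting error only. The 7712 peaks found only in *Tyrobp-/-* mice looked much alike, with a median fold enrichment of 4.29, a median log10 FDR of -2 and a median exonic width of 150 bp.

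**Figure D1:**
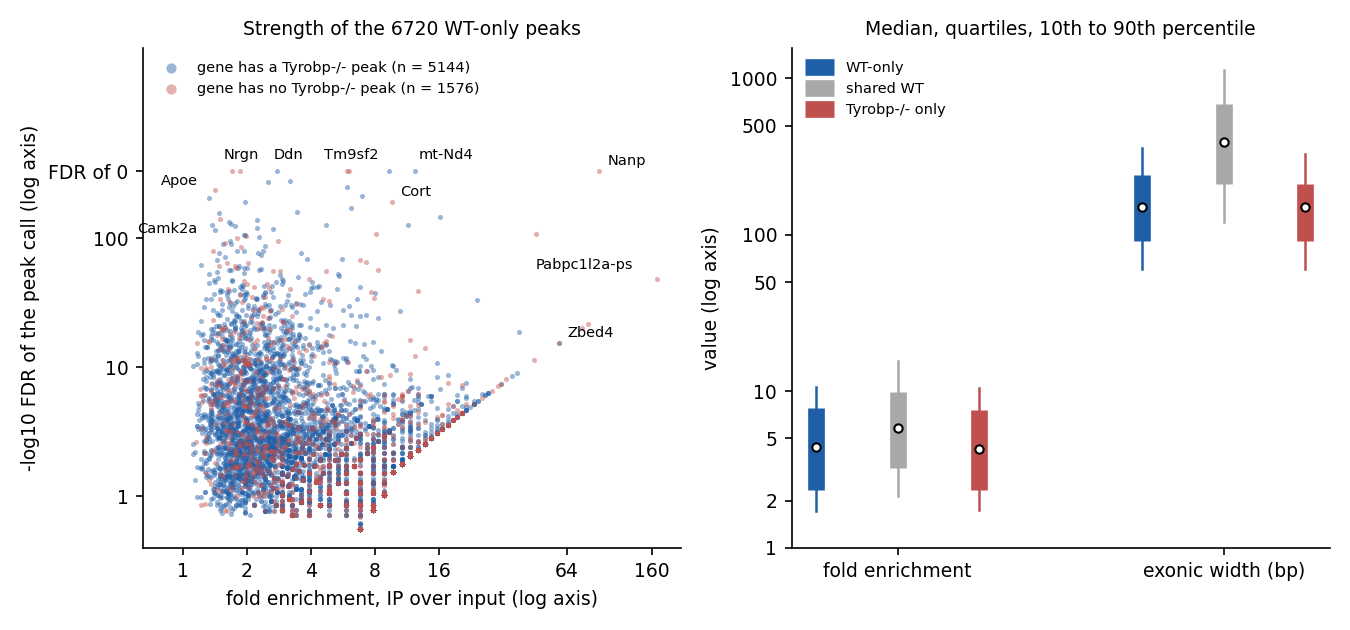
Left, fold enrichment (log axis) against -log10 FDR (log axis) of each WT-only peak, colored by whether its gene holds a *Tyrobp-/-* peak, with peaks whose FDR is listed as 0 drawn at the top tick. Right, medians (circles), quartiles (thick bars) and 10th to 90th percentiles (lines) of fold enrichment and exonic width on a log axis, where the WT-only median width of 151 bp sits below the shared median of 390 bp.

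Strength and confidence ran in opposite directions among the WT-only peaks. The 293 peaks with an FDR below 1e-20 had a median fold enrichment of 2.26, and the 2179 peaks with an FDR above 0.05, which the list holds because it was cut at a p of 0.05, had a median of 6.84. Of the 293, 118 had a fold enrichment below 2 and 53 a fold enrichment of at least 4. A large fold with a weak call was therefore common, and 24.6% of WT-only peaks had both a fold enrichment of at least 4 and an FDR above 0.05, against 3.61% of shared peaks. Many of these rows carried identical values: 39.4% of WT-only peaks shared their fold enrichment, FDR and p with at least 19 other WT peaks, against 12.1% of shared peaks. The most frequent set, a fold enrichment of 6.84 with a log10 FDR of -0.56, was given to 814 WT peaks, of which 565 were WT-only. The read counts behind these rows are not used here, so the depth of a single peak is unknown.

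The share of WT peaks that were WT-only followed the strength of the call. It was 1.98% below an FDR of 1e-20, 15.3% from there to 1e-5, 37.7% up to 0.05 and 62.7% above 0.05. By exonic width it was 51.6% at 100 bp or less and 0.588% above 800 bp, where 32 of 5443 peaks were WT-only. By fold enrichment it fell from 36.6% below 2 to 5.52% at 16 or more. Peaks of the *Tyrobp-/-* list followed the same course, from 2.25% below 1e-20 to 63.0% above 0.05. A wide peak has more bases that can overlap, and among the WT-only peaks the median exonic width went from 240 bp below an FDR of 1e-20 to 150 bp above 0.05.

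**Figure D2:**
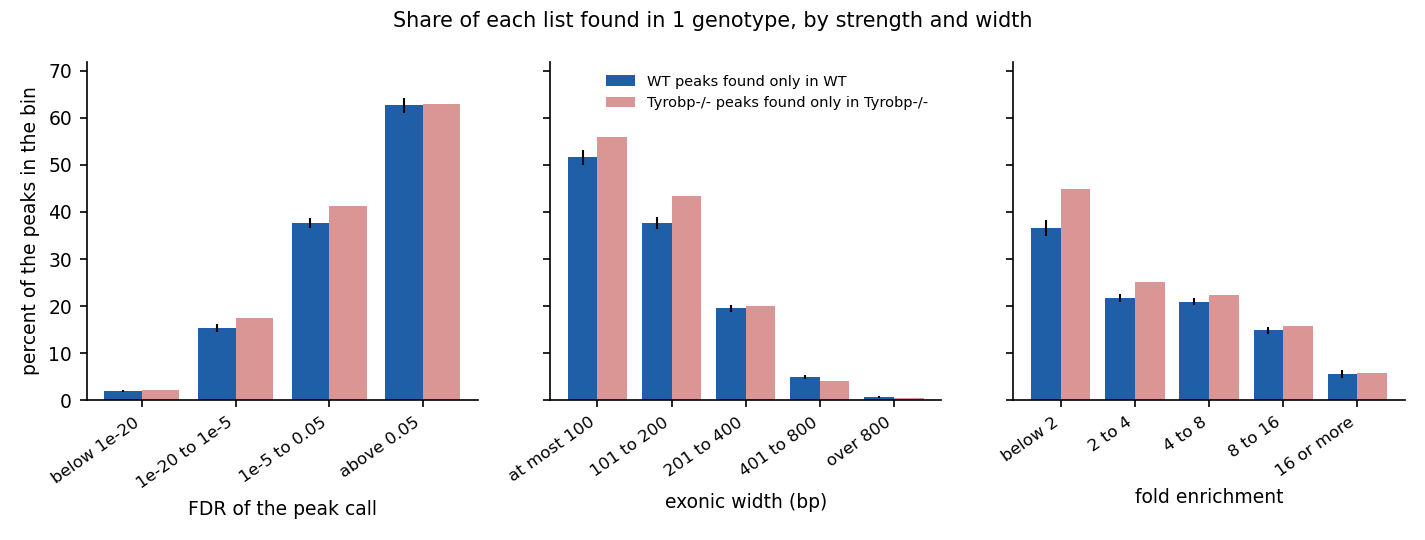
Percent of the WT peaks (blue, with exact 95% intervals) and of the *Tyrobp-/-* peaks (red) in a bin that overlap no peak of the other list, by FDR, exonic width and fold enrichment. The share of WT-only peaks climbs from 1.98% to 62.7% across the FDR bins and falls from 51.6% to 0.588% across the width bins.

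A smaller share of WT-only than of shared peaks lay in 3′ UTRs, and larger shares lay in 5′ UTRs and in exons, and the differences were smaller among weak calls. By the authors' annotation, 28.2% of WT-only peaks (27.2 to 29.3%) were in a 3′ UTR, against 52.0% of shared peaks (51.4 to 52.6%). The 5′ UTR held 22.8% of WT-only and 17.9% of shared peaks. First exons held 8.71% against 4.41%, internal exons 14.5% against 10.5%, last exons 16.2% against 9.80%, and single-exon transcripts 9.49% against 5.39%. Among calls with an FDR of 1e-5 or more, which held 5379 of the 6720 WT-only peaks, the 3′ UTR had 25.9% of WT-only and 30.4% of shared peaks, and the 5′ UTR 22.4% and 18.3%. There, last exons (17.7% against 20.7%) and single-exon transcripts (10.9% against 12.4%) held smaller shares of the WT-only peaks. Along the gene, 32.1% of WT-only peaks had their midpoint in the first 20% of the gene span and 37.6% in the last 20%, against 22.8% and 50.0% of shared peaks.

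The peaks found only in *Tyrobp-/-* mice had other shares: 42.1% of them were in a 3′ UTR and 17.4% in a 5′ UTR. Among confident calls, with an FDR below 1e-5, 4.05% of WT peaks in 3′ UTRs were WT-only, while 8.52% of *Tyrobp-/-* peaks in 3′ UTRs were found only in *Tyrobp-/-* mice. In 5′ UTRs the shares were 8.31% and 4.94%, in internal exons 10.4% and 4.31%, and in last exons 9.98% and 5.63%. The confident WT-only peaks had low folds in every class, with median fold enrichments of 2.06 in 3′ UTRs, 2.07 in internal exons, 2.65 in 5′ UTRs, 2.85 in last exons, 2.87 in first exons and 4.26 in single-exon transcripts. The lists come from 1 pooled call per genotype, so no replicate error can be put on these shares.

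**Figure D3:**
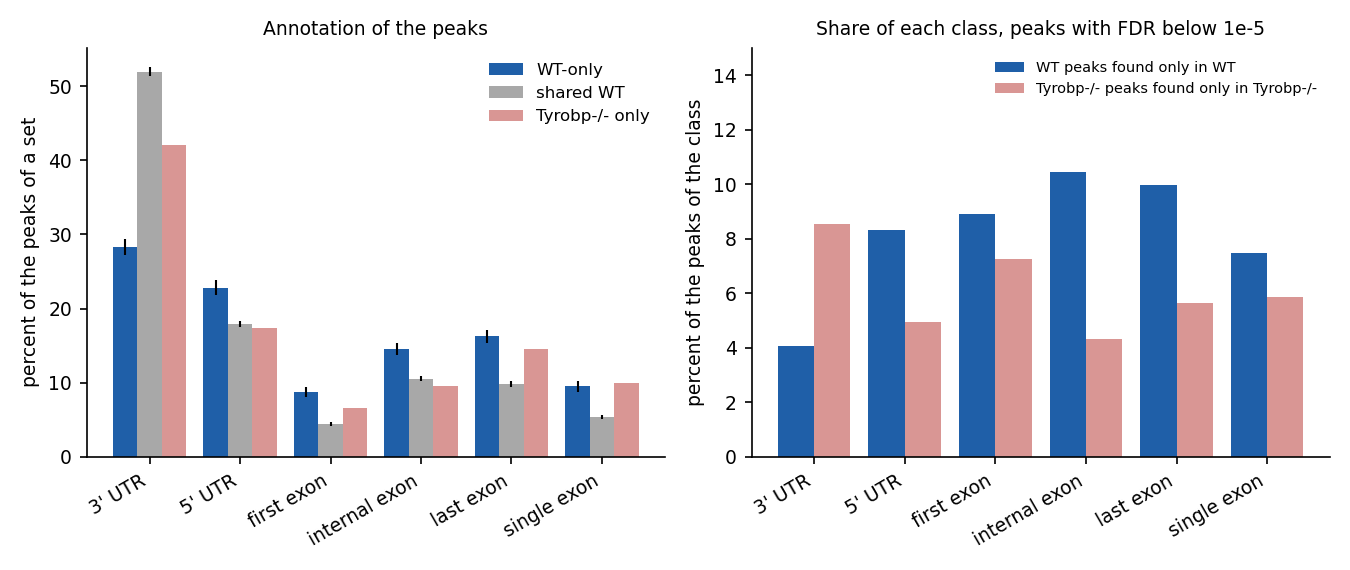
Left, percent of the WT-only (blue), shared WT (grey) and *Tyrobp-/-* only (red) peaks in each annotation class, with exact 95% intervals for the WT-only and shared peaks. Right, percent of the peaks of a class, with an FDR below 1e-5, found in 1 list: 4.05% of 3′ UTR peaks were WT-only against 8.52% in *Tyrobp-/-*, and 10.4% against 4.31% in internal exons.

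Depth and base composition of the IP libraries were compared between the genotypes. Valid reads ranged from 61189368 to 73554506 over the 12 libraries. The percent of G and C bases was 49.7% ± 0.541 (SD, n = 3) in the WT IP and 48.9% ± 0.442 in the *Tyrobp-/-* IP libraries. The difference of -0.777 percentage points had p = 0.20 in an exact permutation test, two-sided (adjusted p = 0.40 over 2 comparisons, where the smallest p for 3 against 3 is 0.10), and the groups overlapped: the lowest WT library, at 49.16%, was below the highest *Tyrobp-/-* library, at 49.33%. Between libraries of the same replicate number, however, the *Tyrobp-/-* library was lower in 3 of 3 pairs, by -0.91, -0.70 and -0.72 percentage points. Replicate 2 stood apart in all 4 groups of libraries, with 92.18 to 92.40% of bases at a quality of Q30 against 94.96 to 95.59% in replicates 1 and 3. Valid reads of the IP libraries, in megareads (M), were 66.6 ± 5.21 M in WT and 64.8 ± 3.04 M in *Tyrobp-/-* mice (difference -1.78 M, exact permutation test p = 0.70). The difference in valid reads turned to 0.721 M without the third WT IP library. The part of base composition in the position of the WT-only peaks was not tested.

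Most genes that held a WT-only peak also had a peak in the knockout. The 6720 peaks lay in 5176 genes, 32.8% of the 15804 genes with a WT peak, and 4020 of these genes held exactly 1. For 5144 WT-only peaks (76.5%, 75.5 to 77.6%), the same gene had at least 1 peak in the *Tyrobp-/-* list. For 4554 (67.8%) it had another WT peak that was shared, and for 2393 (35.6%) it also had a peak found only in *Tyrobp-/-* mice. Counting peaks per gene, 3617 of the 5176 genes had fewer *Tyrobp-/-* than WT peaks, 1050 had the same number and 509 had more. These genes were chosen for a WT peak with no counterpart, which fixes much of that direction. Over all 15804 genes with a WT peak, 4656 had fewer, 7531 the same number and 3617 more.

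In genes with a shared peak, the WT-only peak was compared with shared peaks of the same gene. Beside the shared WT peak of lowest FDR in the same gene, it had a lower fold enrichment in 74.7% of 4554 cases, a higher FDR in 93.4% and fewer exonic bases in 89.1%. The median fold enrichment was 3.63 for these WT-only peaks and 7.79 for the shared peak beside them, and the median exonic width 150 bp and 570 bp. Taking the strongest shared peak favors these directions, as does the overlap rule. Beside the shared peak of highest FDR in the gene instead, the WT-only peak had a lower fold enrichment in 61.5% of cases, a higher FDR in 75.5% and fewer exonic bases in 73.1%.

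In many genes a *Tyrobp-/-* peak lay close to the WT-only peak. Over all 6720 WT-only peaks, the nearest *Tyrobp-/-* peak of any gene was a median of 1555 bp away. For the 5144 whose gene had a *Tyrobp-/-* peak, the nearest one of the same gene was a median of 810.5 bp away. In 1119 of 5144 cases (21.8%) fewer than 150 bases separated the WT-only peak from a *Tyrobp-/-* peak of its gene, and in 1129 (21.9%) at least 10000 did. The nearest *Tyrobp-/-* peak of the gene overlapped another WT peak in 3751 of the 5144 cases (72.9%) and was itself found only in *Tyrobp-/-* mice in 1393 (27.1%). It lay on the 3′ side in 60.1% of cases. WT-only peaks in 3′ UTRs mostly had it in a 3′ UTR too (76.7%), whereas for those in 5′ UTRs it was in a 3′ UTR in 41.8% and in a 5′ UTR in 28.1%. Genes of WT-only peaks in 5′ UTRs (82.8%) and internal exons (81.1%) had a *Tyrobp-/-* peak more often than genes of those in 3′ UTRs (73.2%) or in single-exon transcripts (65.4%).

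**Figure D4:**
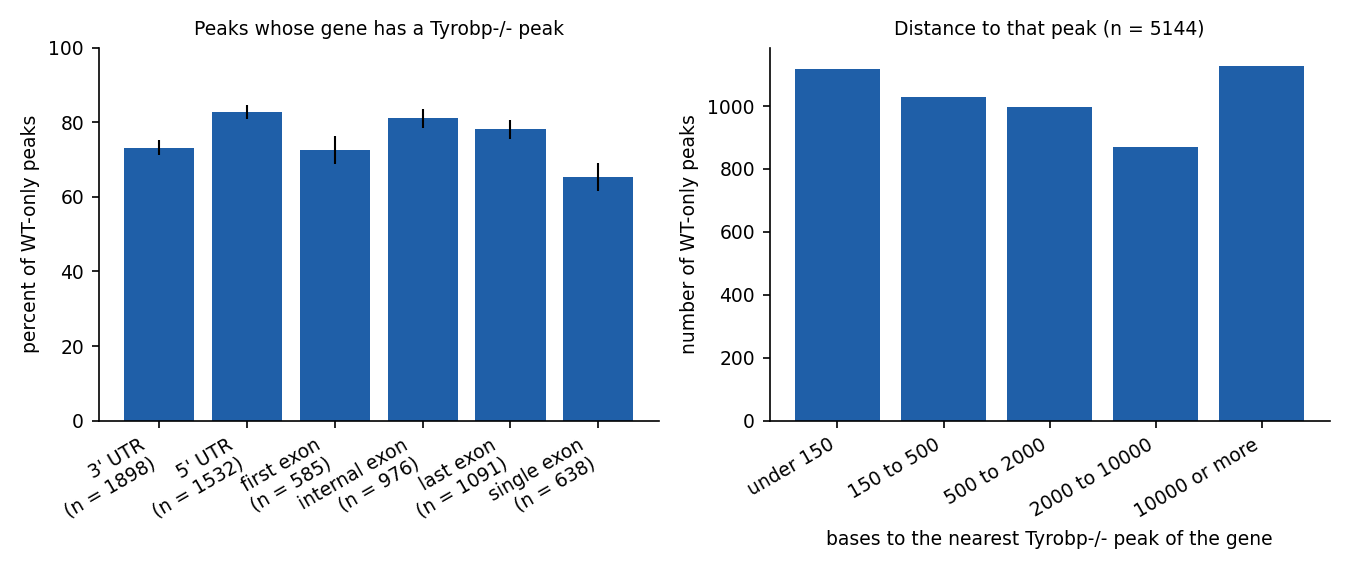
Left, percent of WT-only peaks in each annotation class whose gene holds any *Tyrobp-/-* peak, with exact 95% intervals. The classes run from 65.4% for single-exon transcripts to 82.8% for 5′ UTRs; right, number of WT-only peaks by the distance in bases to the nearest *Tyrobp-/-* peak of their gene, with 1119 under 150 and 1129 at 10000 or more.

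The edge of the overlap rule was sharp. The WT-only peaks nearest to a *Tyrobp-/-* peak were those of *Gm43380* (fold enrichment 10.7) and *Cln3* (8.79), a lysosomal gene, with 1 base between, and *4833445I07Rik* (3.19), with 2. On the other side, shared peaks of *Perm1* (3.04), *Gnao1* (5.86) and *Gm36325* (8.79) overlapped a *Tyrobp-/-* peak by 1 bp. The *Cln3* case also shows a limit of matching by gene. All 4 of its WT-only rows lay between bases 126585428 and 126585817 of chromosome 7, at the 5′ end, and the adjoining *Tyrobp-/-* peak was credited to another gene, so *Cln3* counts as a gene with no *Tyrobp-/-* peak.

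Genes with no *Tyrobp-/-* peak at all were fewer. In 1328 genes, 8.40% of those with a WT peak, at least 1 WT peak was WT-only and the *Tyrobp-/-* list held 0 peaks. For 1115 of them the WT-only peak was the only WT peak, and 249 held a WT-only peak with an FDR below 1e-5. Their 1576 peaks had a median fold enrichment of 6.84, against 3.91 where the gene had a *Tyrobp-/-* peak, but their calls were weaker: 43.7% had an FDR above 0.05, against 29.0%. Predicted gene models named Gm or Rik made up 35.5% of the 1576 peaks. For 161 of them (10.2%), a *Tyrobp-/-* peak credited to another gene lay within 1000 bp.

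The lowest FDRs among genes with no *Tyrobp-/-* peak belonged to 6 named genes. *Nanp*, which encodes the phosphatase of the last step of sialic acid synthesis, had a WT-only peak annotated to its 5′ UTR (chr2:151030250-151039398). That peak had 3 exonic blocks with 923 bases over a span of 9149 bp, a fold enrichment of 90.8 and an FDR listed as 0. A weak WT-only peak of 6.84 lay within the same span. *Tm9sf2*, an endosomal membrane protein, had 1 peak of 6.05 (chr14:122118503-122118949), which also lies over the RefSeq gene *Gm6254*. *Hnrnpa3*, an RNA-binding protein, had a 3′ UTR peak of 5.94. *Cort*, the neuropeptide cortistatin of interneurons, had a peak of 9.60 with a log10 FDR of -191, and *Apoe*, the main lipid carrier of the brain, a last-exon peak of only 1.41 with a log10 FDR of -239.

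*Nrgn* encodes neurogranin, a postsynaptic protein of hippocampal principal neurons that binds calmodulin. Both of its WT peaks were WT-only. One spanned chr9:37546009-37552756 from the 5′ UTR with a fold enrichment of 1.86, and its sequence at the start is printed above. The other lay in the 3′ UTR with 1.71, and both FDRs were listed as 0. The nearest *Tyrobp-/-* peak of any gene was 2681 bp from the 3′ UTR peak. *Nrgn* and *Apoe* thus combined very confident calls with low folds.

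Of the 8 WT-only peaks of lowest FDR, 3 lay in genes with *Tyrobp-/-* peaks. *Unkl*, a zinc finger protein gene, had a 3′ UTR peak of 9.30 that ended 29 bases from a *Tyrobp-/-* peak of 5.10, and it also lies over the RefSeq gene *Gnptg*. *Ddn*, which encodes the dendritic protein dendrin, had a last-exon peak of 2.78, between 3 shared WT peaks of 3.54, 4.15 and 12.7. *B130046B21Rik* overlaps the WT-only peak of *Ddn* in RefSeq. The 4 *Tyrobp-/-* peaks of *Ddn* had folds of 3.19, 2.76, 4.12 and 9.07. The mitochondrial gene *mt-Nd4*, a subunit of complex I, was credited with WT-only peaks of 12.3 and 6.93, of which the first (MT:9877-10173) lies over *ND4L* in RefSeq, and mitochondrial transcripts held 11 WT peaks in all, of which 3 were WT-only.

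The largest folds among WT-only peaks with an FDR below 1e-5 were those of *Pabpc1l2a-ps* (169), *Nanp* (90.8), *Zbed4* (58.6), *Fam205a2* (45.9), *Rtn4rl2* (38.1) and *Cdrt4* (37.1). *Rtn4rl2* encodes a Nogo receptor homolog of neurons. *Fam205a2* belongs to a family of near-identical copies, and the peak of *Pabpc1l2a-ps* lies over the RefSeq gene *Pabpc1l2a*. Whether reads of these peaks also map elsewhere was not tested. All 3 WT peaks of *Fam205a2* (13.7, 45.9 and 11.7) were WT-only, and it had no *Tyrobp-/-* peak. *Zbed4* kept 2 peaks in the knockout, the nearest 89 bases away, and *Cdrt4* had 1 at 57 bases.

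*Nexmif*, an X-linked gene for neurite extension, held most of its WT peaks as WT-only peaks. It had 9 WT peaks, of which 7 were WT-only, and 2 *Tyrobp-/-* peaks that were both shared. The 2 shared sites in the 3′ UTR had folds of 3.88 and 17.1 in WT and 7.81 and 15.8 in *Tyrobp-/-* mice. The WT-only peaks of the last exon stood 5′ of them, with folds of 3.16, 1.99, 5.41, 2.01 and 3.20 and a lowest log10 FDR of -51.3 at chrX:104086719-104087108. A sixth, of 1.73, lay in an internal exon, and the seventh, of 6.84, in the 5′ UTR. The strongest site of the gene, of 17.1 in WT, was thus held by both lists, and the 7 WT-only peaks upstream had lower folds. The WT-only peaks of 5.41 and 6.84 had higher folds than the other shared site, of 3.88 in WT.

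**Figure D5:**
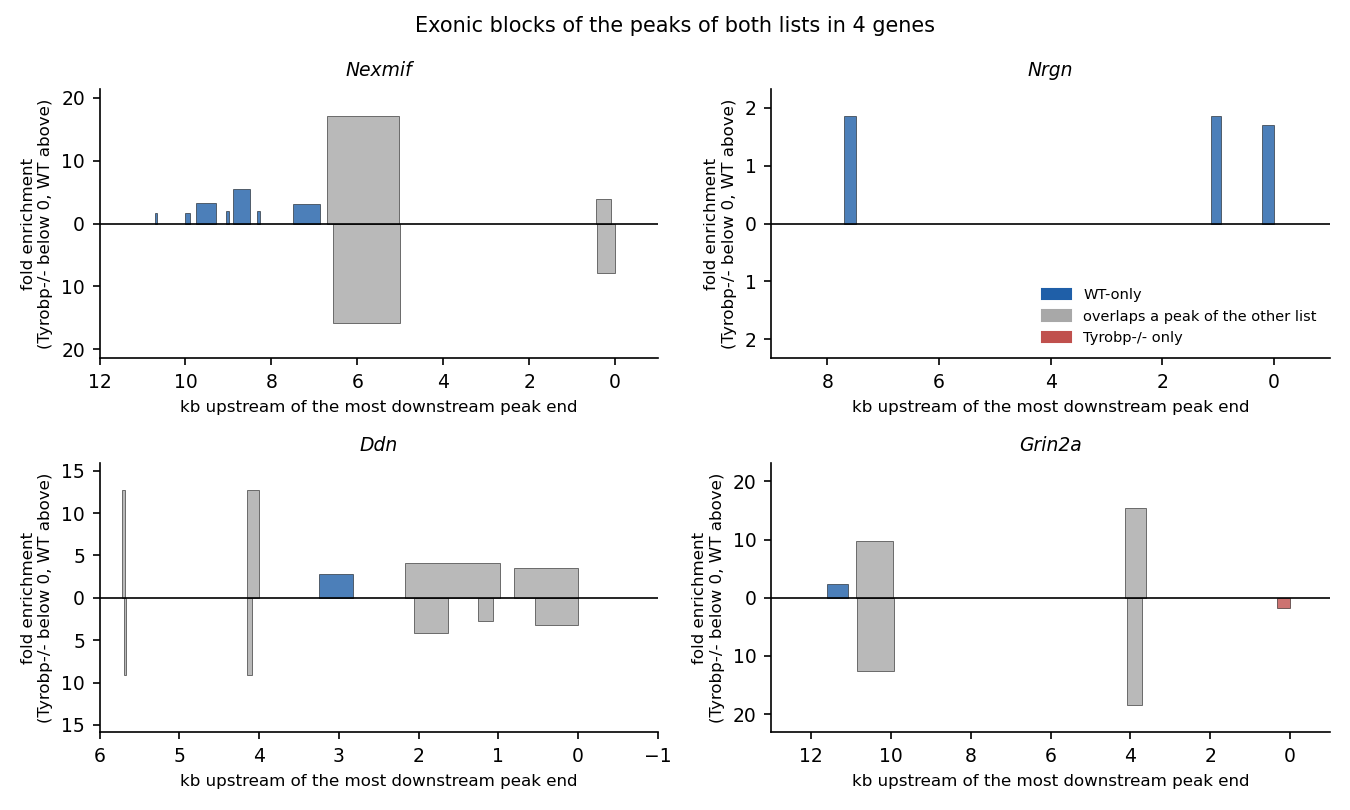
Exonic blocks of the peaks of the WT list (above 0) and of the *Tyrobp-/-* list (below 0) in *Nexmif*, *Nrgn*, *Ddn* and *Grin2a*, with fold enrichment as height and distance in kb (5′ UTR peaks of *Nexmif* and *Grin2a* fall outside the range) upstream of the gene's most downstream peak end as position. WT-only peaks are blue, peaks that overlap one of the other list grey and *Tyrobp-/-* only peaks red; the WT-only peak of *Grin2a*, at 2.39, lies beside a shared peak of 9.72.

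The other genes with the most WT-only peaks show how peaks were credited. *Fgfr2*, a growth factor receptor, was credited with 12 among 51 WT peaks, but its gene model spans 2.96 Mb in the deposited list and 0.104 Mb in RefSeq, and 11 of the 12 peaks lay outside the RefSeq gene, over *Plekha1*, *Ate1*, *Chst15* and other genes. *Kcnq1*, a potassium channel gene, was credited with 8, of folds from 1.92 to 9.77, and WT-only peaks credited to it lie over the antisense transcript *Kcnq1ot1* in RefSeq. The peak at chr7:143425967-143426086 was annotated to a 3′ UTR and the others to single-exon transcripts. *Dst* (7 of 22 WT peaks), a cytoskeletal linker, had a last-exon peak of 1.53 with a log10 FDR of -27.8. *Ttn* (7 of 8), the titin gene of striated muscle, had no WT-only peak with a log10 FDR under -2.19. Among all WT-only peaks whose gene matched RefSeq by symbol (6145), 6.43% lay outside that gene, against 4.72% of shared peaks.

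The 3 widest spans came from peaks that join distant exons. They were those of *Lrrc4c*, a synaptic adhesion molecule (250107 bp, with 121 exonic bases), *Col23a1*, a membrane collagen (226932 bp, 181 exonic), and *Slc8a1*, the sodium-calcium exchanger (202546 bp, 331 exonic). Their folds were 1.81, 6.84 and 1.76. The median span of a WT-only peak was 180 bp.

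Genes of the m6A machinery were near the 32.8% of all genes with a WT peak and a symbol, or below it. Of 11 genes of the methyltransferase group with a WT peak, 3 held a WT-only peak (27.3%): *Mettl16*, a separate m6A methyltransferase (3′ UTR, 1.93, log10 FDR -8.06), *Rbm15*, an adaptor of the METTL3 complex (5′ UTR, 4.39, -1.93), and *Zcchc4*, an rRNA methyltransferase (3′ UTR, 4.56, -1.62). *Rbm15* had another in its 3′ UTR (3.26, -1.33), and all 3 genes kept shared peaks. *Mettl3* had 0 peaks in both lists, and *Mettl14* and *Wtap* had only shared WT peaks. Among erasers and readers, 1 of 9 genes with a WT peak had a WT-only peak, *Ythdc2*, with a weak call (7.81, -0.79). A peak found only in *Tyrobp-/-* mice lay in 7 genes of this list, of which *Igf2bp3* and *Fmr1* had no WT peak. Over all genes, 5988 with a symbol held such a peak, and 16169 genes had a *Tyrobp-/-* peak. By peaks, 5.56% of the list's WT peaks were WT-only and 29.6% of its *Tyrobp-/-* peaks were found only there, against 20.0% and 22.1% of all.

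Genes of microglia and TYROBP signalling were close to that share, at 7 of 23 (30.4%), and each of the 7 had a *Tyrobp-/-* peak. *Siglech*, a microglial lectin that signals through TYROBP, had a 3′ UTR peak of 3.13 (log10 FDR -2.53) in WT and a separate one of 4.00 (-18.0) in the knockout, 1166 bases away. *Inpp5d*, the SHIP1 phosphatase, had one of 2.41 (-2.23). The 4 WT-only peaks credited to *Cx3cr1*, the fractalkine receptor, all lay outside its RefSeq gene and over *Xirp1* or *Gm33858*. *Trem2* had 0 peaks in both lists, and the 5 WT peaks of *Csf1r*, the receptor that microglia depend on, were all shared.

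The counts of other cell type markers are given beside the 32.8% of all genes. The list for excitatory neurons had 12 genes, all with a WT peak. It also holds genes of neurons in general, *Map2*, *Rbfox3*, *Snap25* and *Syt1*, so it is not specific to excitatory cells. Of the 12, 8 held a WT-only peak, each of the 8 had a *Tyrobp-/-* peak, and 3 of the 12 had a peak found only in *Tyrobp-/-* mice. The 8 included *Camk2a* (5′ UTR, 1.37, log10 FDR -128), the kinase of synaptic plasticity, and *Tbr1*, a cortical transcription factor (last exon, 4.00, -40.9). *Map2*, the dendritic microtubule protein, was another (5′ UTR, 1.83, -60.7, with 2 more WT-only peaks). Of 10 astrocyte genes with a WT peak only *Slc1a3*, a glutamate transporter, held one (7.81, -0.79), and of 14 oligodendrocyte genes only *Opalin* (1.84, -13.3) and *Sox10* (2.75, -8.14). Peaks found only in *Tyrobp-/-* mice lay in 5 astrocyte and 4 oligodendrocyte genes. They made up 30.0% of the *Tyrobp-/-* peaks of the astrocyte list, 13.9% of the oligodendrocyte list and 11.8% of the list for excitatory neurons, against 22.1% of all. WT-only peaks made up 4.76%, 5.71% and 35.9% of the WT peaks of the same lists, in this order, against 20.0% of all. The lists are short and no test was made of these counts.

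Neuropeptide and interneuron genes included some with peaks in the WT list alone and some with peaks in the *Tyrobp-/-* list alone. Of 10 interneuron genes with a WT peak, 4 held a WT-only peak and 3 of these had no *Tyrobp-/-* peak: *Pvalb*, the calcium buffer of fast-spiking cells (5′ UTR 1.76 with a log10 FDR of -61.4, 3′ UTR 1.99), *Npy* (5′ UTR 2.13 with -27.7, 3′ UTR 1.39 with -23.3) and *Vip* (3.16, -9.52). The fourth, *Lhx6*, a transcription factor of interneurons, kept 1 peak. Of 7 genes listed as markers of the neighbouring hypothalamus, 5 held a WT-only peak, and *Cartpt* (3.36, -15.9), *Oxt* (4.88, -11.1) and *Trh* (1.86, -6.20) had no *Tyrobp-/-* peak. *Crh* and *Pomc* had WT-only and *Tyrobp-/-* only peaks. *Reln* and *Gal* had 0 WT peaks and 1 *Tyrobp-/-* peak each. By peaks, 50% of the WT peaks of the hypothalamic list and 41.2% of those of the interneuron list were WT-only, against 20.0% of all. Of the *Tyrobp-/-* peaks of the 2 lists, 54.5% and 18.75% were found only in *Tyrobp-/-* mice, against 22.1% of all. Over all genes, 32.8% held a WT-only peak and 8.37% did so with no *Tyrobp-/-* peak. *Hcrt*, *Pmch* and *Avp* had 0 peaks in both lists. The part of neighbouring tissue in these counts was not tested, and input levels of these genes were not used here. For the 9 genes of vessels, ependyma and choroid plexus with a WT peak, 4 held a WT-only peak: *Vwf* (5.69, -27.9), *Kl* (3.26, -11.5), *Aqp1* (2.64, -6.84), the only one with no *Tyrobp-/-* peak, and *Flt1* (9.77, -1.55). In this list 31.25% of the WT peaks were WT-only, and 20% of the *Tyrobp-/-* peaks were found only in *Tyrobp-/-* mice.

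Among Alzheimer's disease genes, 7 of 20 held a WT-only peak (35%), near the 32.8% of all genes. *App*, the amyloid precursor gene, had 2, of 1.41 over internal exons (log10 FDR -117) and 11.2 over a first exon (-4.17), beside 3 peaks found only in *Tyrobp-/-* mice. Its 3′ UTR peak was shared, at 8.45 in WT and 9.43 in the knockout. *Clu*, a chaperone carried in lipoproteins, had one of 1.42 (-46.0) in the 3′ UTR. *Apoe*, described above, was the gene of this list with no *Tyrobp-/-* peak.

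Of glutamate receptor genes, 11 of 22 held a WT-only peak and 9 a peak found only in *Tyrobp-/-* mice, against 32.8% of all genes for the first. By peaks, 23.5% of their WT peaks were WT-only and 19.4% of their *Tyrobp-/-* peaks were found only there, near the 20.0% and 22.1% of all peaks. *Grin2a*, an NMDA receptor subunit, had one of 2.39 (log10 FDR -80.3) beside a shared peak of 9.72, whose counterpart in the knockout had 12.5. *Grm5*, a metabotropic receptor, had 3, of 1.94 (-58.6), 1.59 (-12.4) and 2.08 (-5.45), all 5′ of its shared 3′ UTR peak of 13. *Gria2*, the AMPA receptor subunit that sets calcium permeability, had one of 3.08 (-20.3) in a last exon, and 2 *Tyrobp-/-* only peaks. *Grm4* (1.71, -6.67) was the gene of this list with no *Tyrobp-/-* peak. Immediate early genes, transcribed within minutes of neuronal activity, held WT-only peaks in 6 of 17 cases (35.3%), near the share of all genes. *Egr2* had 3, of 7.23, 2.69 and 6.84, next to a shared 3′ UTR peak of 11.4, and *Nr4a3* (4.10, -4.44) and *Npas4* (4.88, -2.78) had 1 each, both in the 5′ UTR.

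A list of 16 genes taken from those the study's text names, not all of them, had 11 with a WT peak, of which 4 (36.4%, against 32.8% of all genes) held a WT-only peak. *Nlrp6*, an inflammasome receptor, had 3, of 2.33, 3.58 and 6.84, with log10 FDRs of -3.34, -3.33 and -0.56, and had 3 *Tyrobp-/-* peaks of which 2 were shared. *H2-M5*, a non-classical MHC class I gene, had 2, of 8.79 and 5.86. *Pstpip1*, an adaptor of the cytoskeleton in immune cells, had a single WT peak, of 2.63 (log10 FDR -2.20), and no *Tyrobp-/-* peak. *Cldn19*, a tight junction gene, had one of 6.84 (-0.56). The study picked these genes on the same samples, so their counts are not independent evidence.

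Broader groups ranged around the 32.8% of all genes. By the GO terms in the deposited lists, G protein-coupled receptor signaling had the highest share of genes with a WT-only peak among the 14 terms counted (43.8% of 397), followed by chemical synaptic transmission (41.0% of 122), innate immune response (40.7% of 199) and extracellular region (39.5% of 805). Translation (21.1% of 175) and mitochondrion (25.0% of 1176) had the lowest. By peaks the terms lay closer together. WT-only peaks made up 22.7%, 22.3%, 23.5% and 24.9% of the WT peaks of the first-named terms, in this order. They made up 14.9% for translation and 16.1% for mitochondrion, against 20.0% of all. Of the *Tyrobp-/-* peaks of the terms, 20.2%, 15.8%, 26.2%, 23.9%, 26.4% and 22.8% were found only there, against 22.1% of all. Genes of the extracellular region were without a *Tyrobp-/-* peak in 12.5% of cases, against 8.37% of all genes with a symbol. Clustered protocadherins, which share constant exons, held a WT-only peak in 7 of 43 genes and olfactory receptor genes in 14 of 26. Long noncoding RNAs made up 8.72% of WT-only and 6.45% of shared peaks matched to RefSeq, and pseudogenes 3.63% and 2.04%. Numbers of peaks per gene differ between these groups, and their part in the shares was not tested.

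WT-only peaks lay on every autosome, on X and on the mitochondrial genome. On the nuclear chromosomes they made up between 16.4% of the WT peaks on chromosome 8 and 22.8% on chromosome 3. Within 5 Mb of *Tyrobp* on chromosome 7, 63 of 326 WT peaks were WT-only (19.3%, 15.2 to 24.0%), so the neighbourhood of the targeted gene had about the same share as the whole list.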

How the data were processed

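Hippocampal MeRIP-seq of WT and *Tyrobp-/-* mice was used, with 3 IP and 3 input libraries of each genotype. The authors trimmed reads with fastp, mapped them with HISAT2 (Ensembl v96, GRCm38), called peaks with exomePeak on the pooled replicates of a genotype and annotated them with ChIPseeker. Whether counting used strand is not given in the sources used here. The authors deposited for each peak a p-value of IP against input as a score, cut at 0.05, the log10 of its FDR, and the fold enrichment as a ratio of IP over input. For each library the authors deposited counts of raw and valid reads and the percent of G and C bases. The table in which the authors compare the genotypes holds their own log2 fold changes, p and FDR and was not used.

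Spans of the WT and *Tyrobp-/-* lists were intersected, and the gene of a WT-only peak was looked up by gene ID in the *Tyrobp-/-* list. Peaks that fail the authors' cutoff appear in no list, so WT-only does not mean unmethylated in the knockout. Shares carry exact 95% binomial intervals (Clopper-Pearson). Library values were compared by exact permutation tests, whose p-values measure the spread between pooled samples. Genes and sequences were matched by symbol to RefSeq (GRCm38.p6), and 91.4% of WT-only peaks matched. No genome sequence was read, so peak sequences are not printed.

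Named genes are the 8 peaks of lowest FDR, the 6 of largest fold enrichment with an FDR below 1e-5, the 5 genes with the most WT-only peaks, the 6 of lowest FDR with no *Tyrobp-/-* peak, the 3 widest spans, up to 3 genes of each gene list and the peaks at the edge of the rule. Gm and Rik models were skipped in the first 4 groups (4 among the largest folds, 2 among the genes with the most peaks). *Vip*, *Crh*, *Pomc*, *Reln*, *Gal*, *Flt1*, *Grm4*, *Cldn19*, the microRNA genes and list members named for holding no WT-only peak are named outside this rule, with their values already seen. The members and gene lists were chosen with earlier results of these data known. Overlaps were first tested on simulated peaks. Scripts ran under Python 3.11.15 with pandas 2.3.3 for tables, scipy 1.17.1 for intervals and permutations, numpy 2.4.6, and matplotlib 3.10.9 for plots. Alternatives were other overlap rules, a reciprocal overlap of 50%, stricter FDR and fold enrichment, gene models left out, libraries left out and the replicate block.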

Additional observations from a re-analysis of the deposited data

How the results depend on the processing

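The number of WT-only peaks went from 6720 to 1341 with WT peaks of an FDR below 1e-5, 3558 with a fold enrichment of at least 4, and 14868 when shared meant a reciprocal overlap of 50%. With exonic blocks, the same strand, a margin of 150 bp, overlapping rows counted once, or no Gm and Rik models, it was between 5453 and 7211. The percent in 3′ UTRs was 37.7% with the stricter FDR, 22.5% with the fold enrichment minimum, 34.8% with reciprocal overlap and 32.7% without gene models. Each was below the 52.0% of shared peaks in the main setting. With the stricter FDR, 59.0% of shared peaks were in a 3′ UTR, and the share of shared peaks under the other settings is not given here. The percent whose gene had a *Tyrobp-/-* peak was 79.4%, 70.0%, 87.8% and 81.4% under these 4 settings, 72.2% with the margin of 150 bp, and 74.8% with the same strand. The median fold enrichment was 2.33, 7.81, 4.88 and 3.91 under the 4 settings and 4.64 with the margin. The median exonic width was 181 bp with the stricter FDR, 205 bp with the fold enrichment minimum and 209 bp with reciprocal overlap. The fold enrichment minimum selects on that value by construction, and the cause of the other shifts was not tested.

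The labels do not say what a replicate number shared between groups marks, though the libraries numbered 2 had the lowest Q30 in all 4 groups. With the replicate block, the G and C difference of -0.777 percentage points had p = 0.25 (exact sign-flip permutation test, 3 pairs, where 0.25 is the smallest p) and the valid-read difference of -1.78 M had p = 0.50. Leaving out 1 IP library at a time, the G and C difference lay between -1.05 and -0.515 percentage points. The valid-read difference lay between -4.47 and 0.721 M, the latter without WT IP replicate 3. With raw reads it was -2.40 M, with p = 0.70 in an exact permutation test.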
